A study of Mus musculus with 491 samples.

Results

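The genes described here are 9 genes of epithelial and mesenchymal identity: the cadherins Cdh1, Cdh3, Cdh2 and Cdh11, the transcriptional repressors Snai1, Snai2, Zeb1 and Zeb2, and the intermediate filament gene Vim. They were listed by name for the question of a cadherin switch along delamination and its relation, cell by cell, to the Snai and Zeb genes. All 9 had a row in the expression table, out of 19494 genes used, and 8 of them, all but Snai1, were detected in enough cells to be tested. The data come from 491 single cells sorted for tdTomato from the otic vesicle and periotic tissue of mouse embryos at stage E10.5, all of genotype Pax2-Cre/+;Ai14-tdTomato/+. In these embryos a cell is red if it or an ancestor expressed Cre from the Pax2 transgene, so the sort also keeps cells outside the ear that share this history. The labels divide the cells into 2 replicates on 6 plates, with 237 and 254 cells, and name no further group. The labels used here do not say whether the replicates differ by embryo, litter or day. The p-values measure only how differences between classes of cells varied between the replicates, pooled over all classes. This spread may be technical.

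Classical cadherins are calcium-dependent adhesion molecules of the adherens junction, and cells sort by which cadherin they carry. E-cadherin (Cdh1) holds epithelia together, N-cadherin (Cdh2) is the cadherin of neural tissue, P-cadherin (Cdh3) is a close relative of Cdh1 found in epithelia, and Cdh11 is best known from mesenchyme. The zinc-finger proteins of the Snai and Zeb families bind E-box sequences in the Cdh1 promoter and repress it, and they act in the epithelial-mesenchymal transition (EMT) of gastrulation and neural crest. In the otic vesicle, neuroblasts marked by Neurog1 and then Neurod1 leave the epithelium, a step called delamination, and form the statoacoustic ganglion.

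The E-box that Snai and Zeb proteins bind was searched as CAGGTG on both strands (as CACCTG on the other strand) in RefSeq promoter windows of GRCm38.p6 from 250 bases before to 50 bases after a gene's start. Of the 9 genes, 3 (Snai1, Zeb2 and Vim) had windows in the table. The Snai1 window held the motif at 1 place, starting 126 bases before the start, while the 4 Zeb2 windows and the Vim window did not. Of all 32851 windows, 20.2% held it, and a match describes letters only. The 250 bases before the start of Snai1 are shown because Snai1 is both a binder of this motif and a gene of the list, with the motif in capitals (chr2:167537945-167538194, forward strand).
Snai1: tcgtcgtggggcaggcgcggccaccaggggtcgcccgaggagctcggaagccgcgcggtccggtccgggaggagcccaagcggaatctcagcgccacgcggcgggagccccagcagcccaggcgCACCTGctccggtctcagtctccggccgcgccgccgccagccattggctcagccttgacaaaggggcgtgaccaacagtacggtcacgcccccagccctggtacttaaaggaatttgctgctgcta

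The class of each cell was worked out from 67 of 87 listed marker genes, none of them among the 9 genes. The classes were 143 otic epithelium-like cells, 28 early neuroblast-like cells (9 and 19 in the replicates), 61 differentiating neuron-like cells, 134 neural tube progenitor-like cells, 37 surface ectoderm-like cells and 23 mesenchyme-like cells. A further 40 and 25 cells kept their cluster numbers, 4 and 9. Epcam was present in 142 of the 143 otic epithelium-like cells and Oc90 in 81. Of the 28 early neuroblast-like cells 26 held Neurod1, and of the 61 differentiating neuron-like cells 55 held Stmn2. Between 2552 and 6403 genes were found per cell (median 4513), where found means an FPKM (fragments scaled to transcript length and to the library's mapped fragments) of at least 1. The depth in reads is unknown. In 19 pairs of plate rows, transcripts of the cell in 1 well reappeared in the well at the same column of the other row, at a median of 3.34% of their level. This concerned 337 cells, and 154 cells had no such source well. The results are therefore also given for those 154 cells, and for values corrected by setting to 0 whatever was at most 10% of the level in the source well. In 2 of the 19 pairs the median transfer was above this limit, at most 13.7%, so the correction leaves transferred transcripts there. Of the 154 cells without a source well, 98 were in rows that received from no other row. The rest were in receiving rows whose source well held no deposited cell, so transfer into them could be neither seen nor corrected. Of the 28 early neuroblast-like cells, 3 held at least 3 endothelial markers.

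On GRCm38 (GENCODE M21), Cdh3 (8:106510891-106557297, forward strand) and Cdh1 (8:106603351-106670246, forward strand) are both on chromosome 8. Cdh11 is on the same chromosome (8:102632095-102785642, reverse strand). Snai1 (2:167538195-167542814, forward strand), Vim (2:13573927-13582826, forward strand) and Zeb2 (2:44983632-45117395, reverse strand) are on chromosome 2, and Snai2 (16:14705852-14709385, forward strand) is on chromosome 16. Cdh2 (18:16588877-16809246, reverse strand) and Zeb1 (18:5591860-5775467, forward strand) are on chromosome 18. Exons of Zeb2 overlap the antisense gene Zeb2os, and exons of Zeb1 overlap Gm10125 on the opposite strand. The library kit does not mark strand, so reads of these partners cannot be told apart.

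Each gene had its own distribution over the classes. Surface ectoderm-like cells held Cdh1 in 89.2% (33 of 37) and otic epithelium-like cells in 64.3% (92 of 143, exact binomial 95% interval 55.9 to 72.2%). The share was 17.9% among early neuroblast-like cells (5 of 28), and 7 of 61 differentiating neuron-like cells held it. E-cadherin should be absent from the neural tube, and its progenitor-like cells showed Cdh1 in 8.21% (11 of 134), or 2.13% without a source well, at a median of 4248 genes found against 4765 in otic epithelium-like cells. The neuronal share was near that of these progenitor-like cells, and whether it is background was not tested. The progenitor-like class joined clusters 2, 3 and 7 and is not a pure reference. In cluster 7 (33 cells) differentiating neuron markers were found in 46.2% of cells on average, and neural tube progenitor markers in 50.4%. Among the 18 differentiating neuron-like cells without a source well none had Cdh1, which allows a share of up to 16.7%. Here and below, the limit given for a count of 0 is 3 divided by the number of cells. It lies below the upper end of the exact interval, which is 18.5% for 0 of 18. These intervals and limits cover counting error only.

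Cdh3 followed Cdh1 at a lower level, in 26.6% of otic epithelium-like and 27.0% of surface ectoderm-like cells and at most 14.3% elsewhere (early neuroblast-like, 3.57% after correction). Cdh2 ran the other way without being absent from the epithelium: its share was 81.8% in the otic epithelium-like class (117 of 143), 89.3% in the early neuroblast-like class and 98.4% in the differentiating neuron-like class (60 of 61). Its lowest share was 40.5% in surface ectoderm-like cells, or 18.9% after correction (7 of 37). Cdh11 was found in all 23 mesenchyme-like cells, in 55.9% of otic epithelium-like cells, in 29.5% of differentiating neuron-like cells (16.4% after correction) and in 13.5% of surface ectoderm-like cells (5.41% after correction).

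Among the repressors, Zeb1 and Zeb2 were rare in both epithelial classes and common in the neural ones. In mesenchyme-like cells the shares were 34.8% and 30.4%, and after correction that of Zeb1 was the same while that of Zeb2 was 8.70% (2 of 23). The share of cells with Zeb1 was 6.29% in the otic epithelium-like class (9 of 143) and 5.41% in the surface ectoderm-like class, against 67.9% in the early neuroblast-like (19 of 28) and 70.5% in the differentiating neuron-like class (43 of 61). For Zeb2 it was 4.2% in the otic epithelium-like class (6 of 143), 39.3% in the early neuroblast-like (11 of 28) and 90.2% in the differentiating neuron-like class (55 of 61). Of the 44 otic epithelium-like cells without a source well, 1 had Zeb1 and none had Zeb2, which allows a share of up to 6.82%. Snai2 had a different set of classes, with 42.9% of the early neuroblast-like (12 of 28), 43.2% of the surface ectoderm-like (16 of 37) and 39.1% of the mesenchyme-like cells (9 of 23). It was found in 5 of 40 cells of cluster 4 and in 9.84% or less of each other class. Snai1 was rare, in 17 of 491 cells (3.46%), and its largest share was 17.4% of mesenchyme-like cells (4 of 23). Vim, often used as a mesenchymal marker, was found in 78.4% of surface ectoderm-like cells (59.5% after correction), in a larger share of every other class, and in all 134 neural tube progenitor-like cells.

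**Figure D1:**
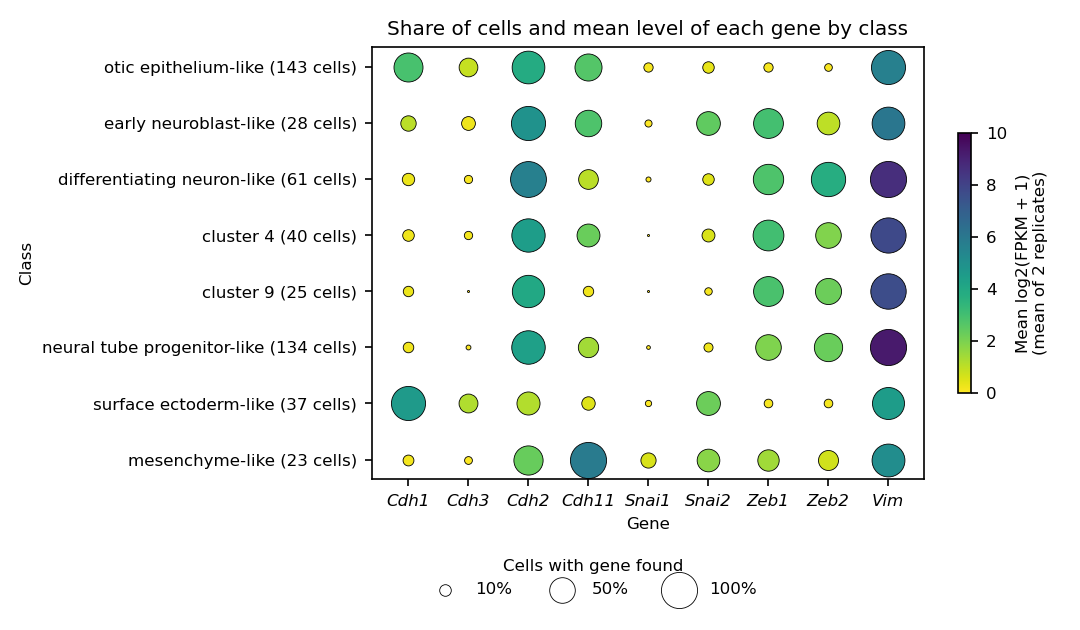
Share of cells in which each of the 9 genes was found at an FPKM of at least 1 (dot area) and its mean log2(FPKM + 1), averaged over 2 replicates (colour), in 8 classes. Cdh1 and Cdh3 are at their highest in the surface ectoderm-like and otic epithelium-like classes, Zeb1 and Zeb2 in the neuronal and neural tube classes, Cdh11 in the mesenchyme-like class, and Vim in the neural tube progenitor-like class.

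By mean level over the replicates, on the log2(FPKM + 1) scale, the order of the classes was as follows. For Cdh1 it ran from surface ectoderm-like (4.61) over otic epithelium-like (2.89) and early neuroblast-like (1.03) to differentiating neuron-like cells (0.31). The replicate means of the first 3 of these classes did not overlap, while those of early neuroblast-like cells (1.70 and 0.37) overlapped those of differentiating neuron-like cells (0.19 and 0.43). For Cdh2 the highest class was differentiating neuron-like (5.67), ahead of early neuroblast-like (4.89), and cluster 4, neural tube progenitor-like, cluster 9 and otic epithelium-like cells (3.89) each overlapped the class above. For Zeb1, cluster 4 (3.04), early neuroblast-like (3.01), cluster 9 (2.89) and differentiating neuron-like cells (2.81) overlapped in their replicates. Differentiating neuron-like cells led for Zeb2 (3.76), and neural tube progenitor-like cells for Vim (9.3) ahead of differentiating neuron-like cells (8.70). Early neuroblast-like cells led for Snai2 (2.45), with surface ectoderm-like cells next (2.24) and no overlap between their replicates.

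The first step of the lineage, early neuroblast-like against otic epithelium-like cells, showed lower Cdh1 and higher Snai2 and Zeb1, with Cdh2 already present on both sides. Class means per replicate were fitted with limma over 10190 genes, with adjustment by Benjamini-Hochberg. At an adjusted p below 0.05, 3 of the 8 tested genes were called, against 3.19% of all genes tested (325 of 10190). Of the 3, 2 rose, against 0.903% of all genes, and 1 fell, against 2.29%. The values are differences in mean log2(FPKM + 1), a scale that understates changes of low genes. Plates 1 to 6 held 1, 5, 3, 9, 8 and 2 early neuroblast-like cells, so the sign in some plates rests on very few cells.

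Cdh1 in single otic epithelium-like cells ranged from 0 to 7.11 with a median of 3.36, and its replicate means were 2.78 and 3.01. In early neuroblast-like cells the median was 0 and the highest value 7.27, and the replicate means were 1.70 and 0.37. Both early neuroblast-like means lay below both otic means, although single cells overlapped over the whole range. Cdh1 fell by 1.86 (SE 0.48, adjusted p = 0.0412, lower in 5 of 6 plates), by 1.07 in replicate 1 and by 2.64 in replicate 2. This call was lost in 10 of 17 alternatives (adjusted p from 0.00153 to 0.547), among them those without plate 1 (p = 0.168), plate 3 (p = 0.248), plate 4 (p = 0.0546), plate 5 (p = 0.104) or plate 6 (p = 0.0789). The difference was negative in all 17.

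Snai2 was at 0 in the median cell of both classes, and its highest values were 5.74 in otic epithelium-like and 8.02 in early neuroblast-like cells. Its replicate means were 0.49 and 0.29 in the epithelium and 2.51 and 2.4 in early neuroblast-like cells, and 12 of 28 early neuroblast-like cells had the gene. Snai2 rose by 2.07 (SE 0.32, adjusted p = 0.00132, higher in 5 of 6 plates), by 2.02 and 2.11 in the replicates. The call was lost without plate 1 (p = 0.0594), without plate 4 (p = 0.0643) and in cells without a source well (difference 3.01, p = 0.0622), where early neuroblast-like cells number 7.

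Zeb1 had a median of 0 and a highest value of 4.15 in otic epithelium-like cells, against a median of 4.03 and a highest value of 6.78 in early neuroblast-like cells. Its replicate means were 0.14 and 0.17 against 2.84 and 3.17. Unlike Snai2, Zeb1 was thus present in the typical early neuroblast-like cell and nearly absent from the typical epithelial cell. It rose by 2.86 (SE 0.45, adjusted p = 0.00141, higher in 5 of 6 plates), by 2.70 and 3.01 in the replicates. The call was lost in 1 of 17 alternatives, cells without a source well, where the difference was 3.46 (p = 0.0741). Without the 3 cells that held endothelial markers the differences were 2.82 for Zeb1 (p = 0.00163), 2.29 for Snai2 (p = 0.000824) and -1.79 for Cdh1 (p = 0.0469).

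The other 5 tested genes did not pass. Cdh2 differed by 1.0 (SE 0.49, adjusted p = 0.397), with replicate means of 3.66 and 4.13 in otic epithelium-like and 5.08 and 4.71 in early neuroblast-like cells. Cdh3 differed by -0.61 (SE 0.18, p = 0.0770) and passed in 4 of 17 alternatives: after correction for transfer (-0.81, p = 0.0114), with means weighted by the number of cells (-0.63, p = 0.0388), with a filter at 1% of cells (p = 0.0306) and with no filter (p = 0.0120). Zeb2 differed by 0.88 (SE 0.49, p = 0.488): of the early neuroblast-like cells, 0 of 9 held it in replicate 1 and 11 of 19 in replicate 2, so the replicates differed in it. Cdh11 differed by 0.10 (p = 0.963) and Vim by 0.41 (p = 0.840).

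**Figure D2:**
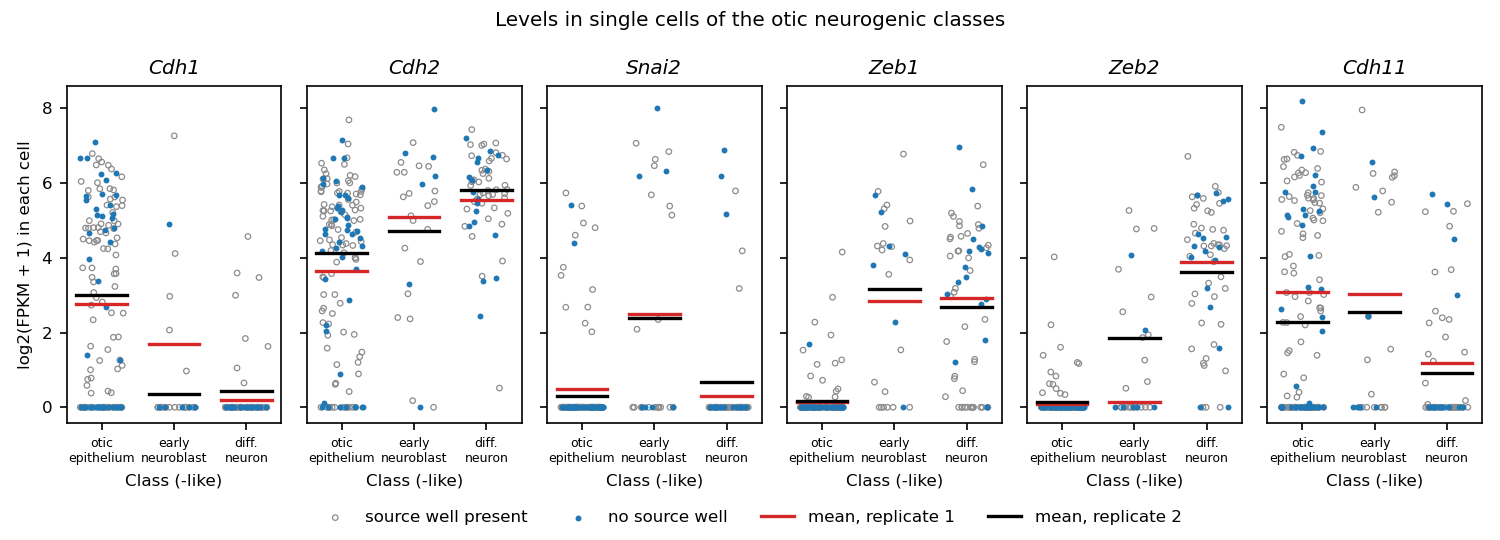
Level of 6 genes in each cell, log2(FPKM + 1), in the otic epithelium-like (143 cells), early neuroblast-like (28) and differentiating neuron-like (61) classes, with horizontal lines for the mean of each replicate, filled points for cells without a source well and open points for cells with one. Zeb1 is above 0 in most early neuroblast-like cells, Zeb2 in most differentiating neuron-like cells, and Snai2 is high in a part of the early neuroblast-like cells.

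From early neuroblast-like to differentiating neuron-like cells, Snai2 and Cdh11 fell and Zeb2 and Vim rose, while Zeb1 and Cdh2 did not pass the test. In this comparison 4 of the 8 tested genes were called, against 4.48% of all genes tested (457 of 10190). Of the 4, 2 rose, against 3.15% of all genes, and 2 fell, against 1.33%. The comparison shares its early neuroblast-like means with the one above.

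Snai2 returned to replicate means of 0.31 and 0.68, from 2.51 and 2.4. It fell by 1.96 (SE 0.32, adjusted p = 0.00149, lower in 5 of 6 plates), by 2.2 and 1.72 in the replicates. Snai2 was therefore called in opposite directions in the 2 steps, and the difference between differentiating neuron-like and otic epithelium-like cells did not pass the test (0.10, SE 0.32, p = 0.910). The second call was lost without plate 4 (p = 0.0804), with the log2 taken of mean FPKM (p = 0.0549) and in cells without a source well (p = 0.221).

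Zeb2 had replicate means of 0.13 and 1.85 in early neuroblast-like cells and of 3.88 and 3.63 in differentiating neuron-like cells, where its median was 4.31 and its highest value 6.72. It rose by 2.76 (SE 0.49, adjusted p = 0.00240, higher in 5 of 6 plates), by 3.75 in replicate 1 and 1.77 in replicate 2. The replicates of the 2 classes did not overlap, and their distance was set by the early neuroblast-like cells, the class in which the replicates differed. The call was lost with the log2 of mean FPKM (p = 0.0686) and in cells without a source well (p = 0.228).

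Zeb1 stayed at replicate means of 2.94 and 2.68 (difference -0.20, SE 0.45, p = 0.884). Cdh2 was at 5.54 and 5.81 (difference 0.78, SE 0.49, p = 0.470). The remaining epithelial cadherin signal was at 0.19 and 0.43 for Cdh1 (difference -0.72, SE 0.48, p = 0.493). Cdh11 had replicate means of 3.03 and 2.54 in early neuroblast-like and of 1.18 and 0.92 in differentiating neuron-like cells. It fell by 1.73 (SE 0.46, p = 0.0397), a call lost in 9 of 17 alternatives (p from 0.0111 to 0.493), including those without plate 1 (p = 0.144), plate 2 (p = 0.233), plate 4 (p = 0.267) or plate 6 (p = 0.183).

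Vim, which encodes the filament protein vimentin that neural progenitors carry as well as mesenchyme, had replicate means of 6.53 and 5.61 in early neuroblast-like and of 8.85 and 8.56 in differentiating neuron-like cells. It rose by 2.63 (SE 0.57, p = 0.0120, higher in 6 of 6 plates). The call was lost in 5 of 17 alternatives, including the one without plate 4 (p = 0.0524).

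**Figure D3:**
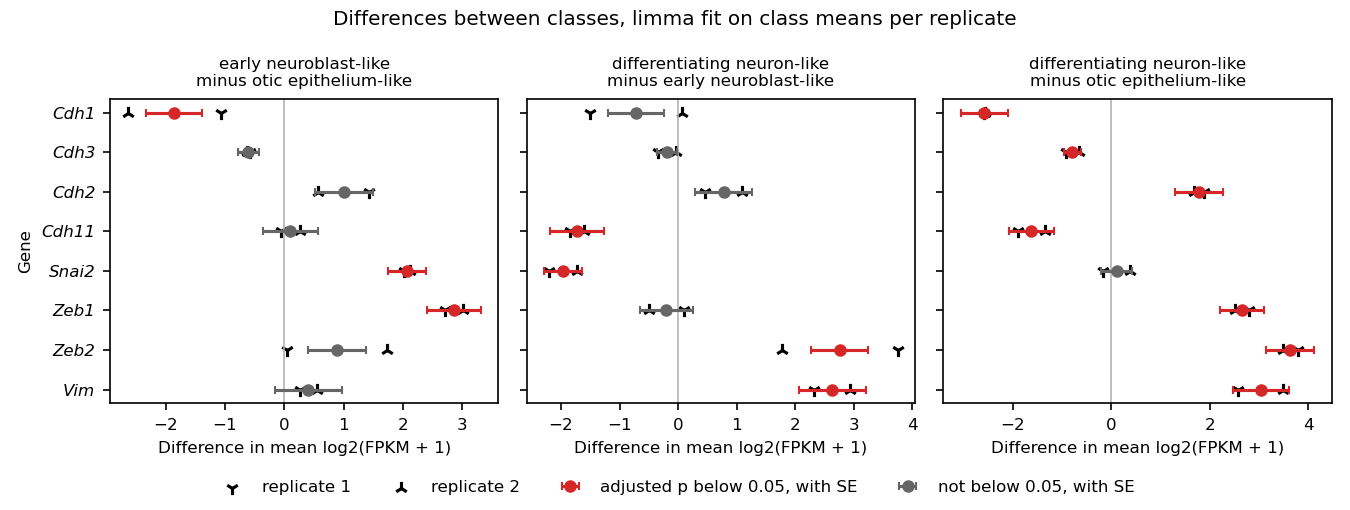
Difference in mean log2(FPKM + 1) between classes for the 8 tested genes in 3 comparisons, with the standard error of the limma fit (circles, red where the adjusted p is below 0.05) and the difference within each replicate (black marks). Snai2 lies above 0 in the first panel and below 0 in the second, Zeb1 is called in the first and Zeb2 in the second, and in the third panel all genes but Snai2 are called.

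Across both steps, differentiating neuron-like against otic epithelium-like cells, 7 of the 8 tested genes were called, against 9.78% of all genes tested (997 of 10190). The epithelial cadherins were lower: Cdh1 fell by 2.58 (SE 0.48, adjusted p = 0.00149), by 2.58 in each replicate, and Cdh3 fell by 0.79 (SE 0.18, p = 0.00645). Both were lower in 6 of 6 plates. Cdh2 rose by 1.78 (SE 0.49, p = 0.0267, higher in 6 of 6 plates), by 1.88 and 1.67 in the replicates. This rise was lost in 7 of 17 alternatives (p from 0.000381 to 0.712), including those without plate 2 (p = 0.112) or plate 5 (p = 0.120). Cdh11 fell by 1.63 (SE 0.46, p = 0.0306), a call lost in 6 of 17 alternatives, including those without plate 2, 3, 4 or 6 (p = 0.120, 0.105, 0.147 and 0.175). Zeb1 rose by 2.66 (SE 0.45, p = 0.000750), Zeb2 by 3.64 (SE 0.49, p = 7.00e-05) and Vim by 3.04 (SE 0.57, p = 0.00171), each in 6 of 6 plates. In cells without a source well the differences of Cdh1, Zeb1 and Zeb2 were -2.81, 3.42 and 3.94, with adjusted p of 0.0942, 0.0506 and 0.0752.

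Cdh1 and Cdh2 were next counted within single cells. Of 143 otic epithelium-like cells, 77 had both Cdh1 and Cdh2, 15 Cdh1 alone, 40 Cdh2 alone and 11 neither. In the replicates 35 of 70 and 42 of 73 cells had both. After correction for transfer 70 of 143 cells had both, and of the 44 cells without a source well 18 had both, 7 Cdh1 alone, 16 Cdh2 alone and 3 neither. Cells with both thus outnumbered cells with 1 of the genes among all 143 cells, but not among these 44. With Cdh1 in 64.3% and Cdh2 in 81.8% of the class, many such cells arise without any relation between the genes. The 2 otic clusters gave like shares, with Cdh1 in 68 of 105 and 24 of 38 cells and Cdh2 in 85 of 105 and 32 of 38, although Oc90 was found in 44.8% and 89.5% of them.

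In the neuronal classes, where nearly every cell had Cdh2, cells with Cdh1 alone could not be many. No early neuroblast-like cell (0 of 28, which allows up to 10.7%) and no differentiating neuron-like cell (0 of 61, up to 4.92%) had Cdh1 without Cdh2. In these classes 5 and 7 cells had both, 20 and 53 had Cdh2 alone, and 3 and 1 had neither. After correction 3 cells of each class had both. Surface ectoderm-like cells were the reverse, with 21 of 37 cells at Cdh1 alone, 12 at both, 3 at Cdh2 alone and 1 at neither, and 9 of 13 at Cdh1 alone among those without a source well.

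The Zeb genes were counted in the same way. Of 28 early neuroblast-like cells, 12 had Zeb1 alone, 7 both, 4 Zeb2 alone and 5 neither. Of 61 differentiating neuron-like cells, 2 had Zeb1 alone, 41 both, 14 Zeb2 alone and 4 neither. In replicate 1 the early neuroblast-like cells with a Zeb gene were 6 cells with Zeb1 alone, and in replicate 2 they were 6 with Zeb1 alone, 7 with both and 4 with Zeb2 alone. Correction for transfer left the early neuroblast-like counts as they were. Snai2 was found together with Zeb1 in 8 early neuroblast-like cells, without it in 4, and Zeb1 without Snai2 in 11. The share of cells with at least 1 of the 4 repressor genes was 23.8% in the otic epithelium-like class (9.09% without a source well), 89.3% in the early neuroblast-like class and 93.4% in the differentiating neuron-like class. The surface ectoderm-like share of 45.9% (17 of 37) was mostly Snai2, found in 16 of these 17 cells, and 14 of the 16 had Cdh1 as well. This class's share with a repressor gene was the same after correction, but 23.1% among its 13 cells without a source well.

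**Figure D4:**
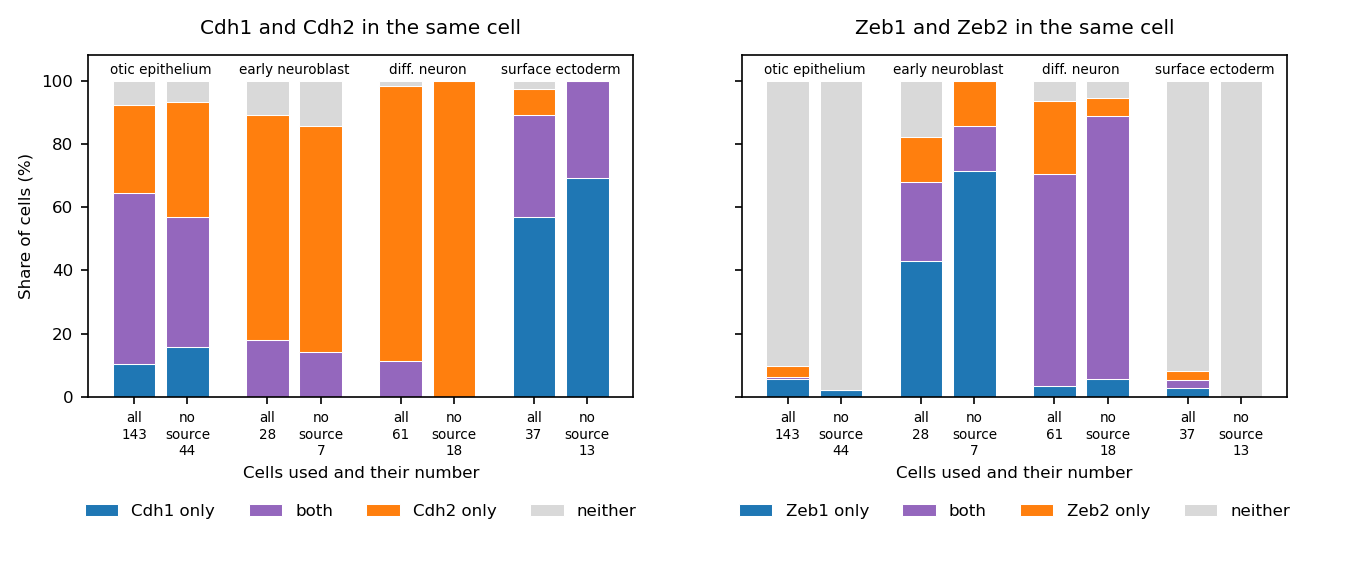
Share of cells with Cdh1, Cdh2, both or neither (left) and with Zeb1, Zeb2, both or neither (right), in 4 classes, for all cells and for cells without a source well, with the number of cells under each bar. Cdh1 with Cdh2 is the largest state of otic epithelium-like cells (77 of 143), Zeb1 alone of early neuroblast-like cells (12 of 28) and both Zeb genes of differentiating neuron-like cells (41 of 61).

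Cells with both Cdh1 and Zeb1 were few, as cells with Zeb1 were few in the epithelium and cells with Cdh1 few in the neuronal classes. Of the 9 otic epithelium-like cells with Zeb1, 8 also had Cdh1, against 84 of the 134 cells without Zeb1. After correction 2 otic epithelium-like cells had Zeb1, 1 of them with Cdh1, and the 1 such cell without a source well had Cdh1. The 3 early neuroblast-like and 3 differentiating neuron-like cells with Cdh1 and Zeb1 came to 1 each after correction. Within a class, the level of Cdh1 followed none of the repressors closely. Spearman's rho across the 143 otic epithelium-like cells was -0.01 with Snai2, 0.02 with Zeb1 and 0.03 with Zeb2, and across the 28 early neuroblast-like cells it was -0.13, 0.12 and -0.21. In the 61 differentiating neuron-like cells it was 0.04, -0.22 and 0.10. These cells share replicates and plates, most values of Cdh1 or of the repressor are 0, and such coefficients only describe the cells at hand.

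Cells of the 3 lineage classes were also ordered by genes outside the list into 4 steps of delamination. Step 1 held Epcam without Neurog1 or Neurod1 (123 cells), step 2 Neurog1 or Neurod1 with Epcam and no Stmn2 (30 cells), step 3 Neurog1 or Neurod1 without Epcam or Stmn2 (9 cells), and step 4 Neurod1 with Stmn2 (68 cells). In 2 cells none of these applied. Step 2 drew 12 otic epithelium-like, 15 early neuroblast-like and 3 differentiating neuron-like cells, and after correction it held 22 cells. Step 4 drew 10 otic epithelium-like, 5 early neuroblast-like and 53 differentiating neuron-like cells, and after correction it held 54 cells. Of 143 otic epithelium-like cells 18 had Neurod1, but 4 after correction and 1 of the 44 without a source well. Stmn2 was found in 14 of the 143, but in 3 after correction. Of 28 early neuroblast-like cells 19 had Epcam, but 14 after correction.

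Cdh1 was found in 67.5% of cells at step 1 (83 of 123), 30.0% at step 2 (9 of 30), 0 of 9 at step 3 (which allows up to 33.3%) and 17.6% at step 4 (12 of 68). Its replicate means were 3.04 and 2.94 at step 1 and 0.82 and 1.65 at step 2. After correction the shares at steps 1, 2, 3 and 4 were 63.0%, 18.2% (4 of 22), 6.25% (1 of 16) and 5.56% (3 of 54). Cdh2 was found in 78.9%, 96.7%, 88.9% and 98.5% of cells along the steps, with replicate means of 3.6 and 3.94 at step 1 and 4.91 and 5.5 at step 2. Cdh11 was found in 52.8%, 70.0%, 22.2% and 36.8%. Step 4 included 10 otic epithelium-like cells, so the step 4 shares of Cdh1 and Cdh11 are not those of neuron-like cells alone.

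The repressors differed in where along the steps they were found, in shares taken before correction for transfer unless stated. Snai2 peaked at step 2, with 8.94% of cells at step 1, 46.7% at step 2 (5 of 10 and 9 of 20 cells in the replicates), 1 of 9 cells at step 3 and 8.82% at step 4. Zeb1 went from 4.88% at step 1 to 53.3% at step 2 (5 of 10 and 11 of 20), 77.8% at step 3 and 60.3% at step 4. Zeb2 was at 5.69%, 26.7%, 77.8% and 73.5%, and at step 2 it was found in 0 of 10 cells of replicate 1 and 8 of 20 of replicate 2. Among cells without a source well, neither Zeb gene was found at step 1 (0 of 42, up to 7.14%), while Zeb1 was found in 5 of 6 cells and Snai2 in 3 of 6 at step 2. Of the 30 cells at step 2, 13 had a Zeb gene without Cdh1, 7 had both, 2 had Cdh1 alone and 8 neither, so that 7 of the 9 cells with Cdh1 also held a Zeb gene. After correction the counts were 11, 2, 2 and 7 of 22 cells, and 2 of 4 cells with Cdh1 held a Zeb gene. Each of the 9 cells at step 3 had a Zeb gene and none had Cdh1. After correction step 3 held 16 cells, of which 15 had a Zeb gene without Cdh1 and 1 had both.

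**Figure D5:**
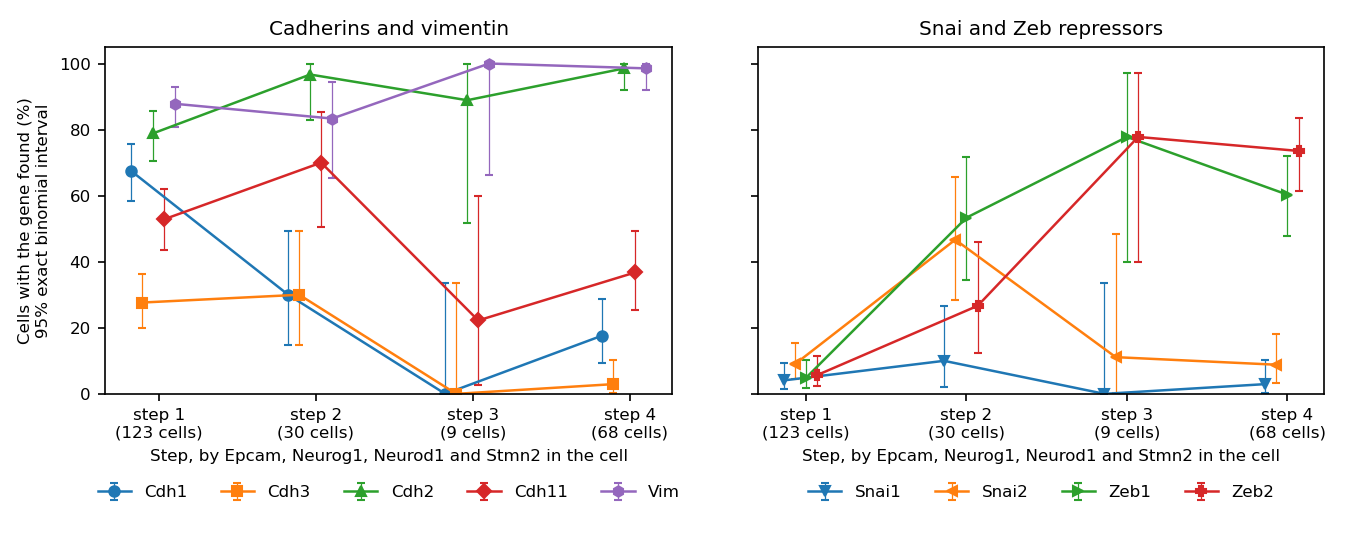
Share of cells with each of the 9 genes at 4 steps of delamination, before correction for transfer. Bars give exact binomial 95% intervals for counting error, for cadherins and Vim (left) and repressors (right). Cdh1 goes from 67.5% at step 1 to 30.0% at step 2, Snai2 is highest at step 2 (46.7%), and Zeb1 is above Zeb2 at step 2 (53.3% and 26.7%), with wide intervals at step 3 (9 cells).

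Beyond the neurogenic lineage the same genes were combined in other ways. Mesenchyme-like cells against otic epithelium-like cells had 4 of 8 tested genes called, against 4.71% of all genes: Cdh11 rose by 3.19 (SE 0.46, adjusted p = 0.000311, replicate means 5.84 and 5.92), Snai2 rose by 1.38 (SE 0.32, p = 0.0185), Cdh1 fell by 2.71 (SE 0.48, p = 0.00190) and Cdh3 fell by 0.83 (p = 0.00868). Cdh11 was also among the 10 leading genes of this cluster, whose name was checked against them. Zeb1 (difference 1.26, p = 0.149), Zeb2 (0.62, p = 0.60) and Vim (-0.53, p = 0.731) did not pass there. The Snai2 call was lost in 6 of 17 alternatives (p from 0.00836 to 0.388), among them those without plate 2 (p = 0.0806), plate 3 (p = 0.150), plate 4 (p = 0.0657) or plate 5 (p = 0.388). The Cdh3 call was lost without plate 2 (p = 0.0585) or plate 5 (p = 0.0676), and that of Cdh11 with the log2 of mean FPKM (p = 0.138).

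Surface ectoderm-like cells had 3 of 8 called, against 3.64% of all genes: Cdh2 fell by 2.75 (SE 0.49, p = 0.00239), Cdh11 fell by 2.19 (SE 0.46, p = 0.00912) and Snai2 rose by 1.85 (SE 0.32, p = 0.00218), with Cdh1 at a difference of 1.71 (p = 0.0570). Snai2 was thus higher in a class with Cdh1 in 33 of 37 cells. The Snai2 call was lost in 4 of 18 alternatives (p from 0.000147 to 0.792), including those without plate 2 (p = 0.107) or plate 5 (p = 0.0611) and that with cells without a source well, where the difference was 1.08 (p = 0.792). The Cdh11 call was lost in 5 of 18, including those without plate 2 (p = 0.0615), plate 4 (p = 0.0694) or plate 6 (p = 0.0664), and the Cdh2 call in cells without a source well (p = 0.487).

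Neural tube progenitor-like cells had 5 of 8 called, against 4.45% of all genes, with Cdh1 and Cdh3 lower and Zeb1 (1.80, p = 0.0287), Zeb2 (2.16, p = 0.0139) and Vim (3.63, p = 0.000701) higher. Zeb1 was lost in 5 of 18 alternatives, including those without plate 2 (p = 0.261), plate 4 (p = 0.0694), plate 5 (p = 0.0876) or plate 6 (p = 0.0744), and Zeb2 in 5 of 18, including those without plate 2 (p = 0.0529) or plate 4 (p = 0.0781). Cdh3 was lost in 3, including those without plate 2 (p = 0.0588) or plate 5 (p = 0.0728), Cdh1 in 2 and Vim in 1.

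In cluster 4 Zeb1, Zeb2 and Vim rose (3 of 8, against 4.71% of all genes that rose) and Cdh1 and Cdh3 fell (2 of 8, against 6.75% that fell). In cluster 9 6 of 8 were called, against 20.5% of all genes: these 5 in the same directions, and Cdh11, which fell by 2.48 (p = 0.00106). In cluster 4 the Vim call was lost in 7 of 17 alternatives, including those without plate 1 (p = 0.0650), plate 2 (p = 0.0527), plate 4 (p = 0.0948) or plate 5 (p = 0.0640). The Zeb2 call was lost in 5, including those without plate 2 (p = 0.0528) or plate 4 (p = 0.133), and the Cdh3 call in 5, including those without plate 2 (p = 0.153) or plate 5 (p = 0.0752). In cluster 9 the Vim call was lost in 4 of 16, including those without plate 1 (p = 0.0559) or plate 5 (p = 0.0905), and each of the other 5 calls in cells without a source well.

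Other genes of adhesion and EMT were read from 7 lists beside the 9 genes. In the tight junction, desmosome and polarity list, 13 of 22 tested genes fell from otic epithelium-like to early neuroblast-like cells and none rose, with a median difference of -1.40 against -0.12 over all genes tested, of which 2.29% fell. Cldn7, a claudin of the tight junction, fell by 4.75 (SE 0.56, adjusted p = 0.000103) and Krt18, a keratin of simple epithelia, fell by 4.34 (SE 0.66, p = 0.000973). From early neuroblast-like to differentiating neuron-like cells 4 of the 22 fell (median -0.43 against 0.01, and against 1.33% of all genes that fell), with Krt18 falling by a further 2.89 (p = 0.0170) and F11r, a junctional adhesion molecule, by 2.65 (p = 0.00188). Among the epithelial factors opposed to EMT, 5 of 14 fell in the first step (median -0.82, against 2.29% of all genes that fell), with Ap1m2, an adaptor subunit of basolateral sorting, falling by 2.92 (p = 0.000961) and Prss8, a membrane serine protease, by 2.76 (p = 0.00125). In the second step 2 of 14 fell (median -0.55, against 1.33% of all genes that fell): Spint2, a serine protease inhibitor, fell by 3.96 (p = 4.50e-05) after no detectable difference in the first step (means of 7.79 in both classes), and Ap1m2 by 2.17 (p = 0.00763).

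The remaining 5 lists are to be read against the 3.19% and 4.48% of all genes called in the first and second step. With lists this short, a count of 0 or 1 cannot be told from those shares. Of the cadherin partners of the adherens junction, 0 of 9 tested genes were called in the first step and 1 in the second, Ctnna2, the neural alpha-catenin, which rose by 1.85 (SE 0.37, p = 0.00698). Among other cadherins 1 of 9 tested genes was called in each step, and it was Cdh6 both times. Cdh6 had means of 0.60 in otic epithelium-like, 2.56 in early neuroblast-like and 4.84 in differentiating neuron-like cells, rising by 1.96 (SE 0.44, p = 0.0190) and by 2.28 (p = 0.00538). Of the other EMT regulators 1 of 12 was called in each step, Sox9, which fell by 2.06 (p = 0.0260) and by 2.18 (p = 0.0149). Sox9 is best known here as a gene of the otic placode and vesicle. None of the 12, Twist1 and Twist2 among them, rose in either step. In the mesenchymal matrix and cytoskeleton list no gene of 13 rose in either step, 3 fell in the first and 2 in the second. Of all genes tested, 2.29% fell in the first step and 1.33% in the second. The median difference of the list was -0.42 and -0.23, against -0.12 and 0.01 over all genes tested. Sparc, a matrix-binding glycoprotein, fell by 2.13 (p = 0.0287) and by 1.85 (p = 0.0477), Vcan, a proteoglycan, by 1.94 in the first (p = 0.0231) and Fn1, fibronectin, by 1.83 in the second (p = 0.0305). No cadherin-cleaving protease of 9 tested was called in either step.

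The genes whose 16 class-by-replicate means were most like those of a listed gene are given with Pearson's r, as a description of 8 classes that share libraries. For Cdh1 they were Llgl2, Pdlim1 and Dsp (r = 0.97 for each), and for Cdh3 they were Esrp1, Arhgef16 and Frem2 (r = 0.98 for each). Cdh1 and Cdh3 themselves had r = 0.95. For Cdh2 the highest r was 0.85 (Dennd5a), followed by Leprotl1 and 5730455P16Rik, and for Cdh11 it was 0.90 (Gtf2h3), followed by Grhpr and Ppfibp2. For Snai2 it was 0.89 (Dtnb), followed by Psme1 and Foxp1. For Zeb1 it was 0.94 (Spsb4), followed by Cotl1 and Btbd17, and for Zeb2 it was 0.89 (Slco4a1), followed by Lrrn3 and Rnf165. For Vim it was 0.87 (Mapk11), followed by Syt11 and Ckb. The repressor with the lowest r to Cdh1 was Zeb1 (r = -0.76), with Zeb2 at -0.65 and Snai2 at 0.39.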

How the data were processed

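Single cells were sorted into 96-well plates and their cDNA was made with SMARTer V3 and Nextera XT, per the labels. The submitters' processing notes name the build mm10 and, without versions, Cufflinks, TopHat, SAMtools, both Bowtie and Bowtie2, FastQC and cutadapt. The deposited values are log2(FPKM + 1) per gene and cell, a scale worked out from the values themselves: after back-transformation 99.7% have 6 significant digits (relative tolerance 1e-07). Of 19659 rows, 29 without a name and 132 of repeated identifiers were left out.

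Cells were clustered (scanpy 1.11.5, leidenalg 0.10.2, 15 components, 15 neighbours, resolution 1) on markers that exclude the 9 genes, and clusters were named from those markers. No doublet caller was run. Mean log2(FPKM + 1) per class and replicate was fitted with limma 3.58.1 (R 4.3.3, trend, replicate as block, Benjamini-Hochberg threshold 0.05). The fit covered genes found in at least 5% of cells, markers left out, with at least 5 cells per class and replicate. It was tested on simulated classes, all drawn in equal numbers from otic epithelium-like cells. That test does not cover classes of unequal size, such as the early neuroblast-like class. Cells of all 8 classes share one estimate of the spread. Replicate numbers are those of the labels, and every class of a replicate comes from the same sorted cells, so the block is part of the design. The 9 genes, the lists and the tests were chosen with earlier results of these data known. Besides the 9, the text names from each list the 2 genes with the largest difference among those called in each of the first 2 comparisons, and for each tested gene the 3 most alike by Pearson correlation; Twist1 and Twist2 were named after their values were seen. Alternatives changed the log scale, filter, scaling, weights, transfer, clustering and the cells left out.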

Additional observations from a re-analysis of the deposited data

How the results depend on the processing

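Member calls were the same in 47 of 47 differences with no replicate block, with upper-quartile scaling and without endothelial, macrophage or erythroid cells (an alternative chosen after seeing the data). With no replicate block 309, 414, 946, 458, 355, 409, 1092 and 1947 genes were called in the first step (otic to early neuroblast-like), the second step (on to neurons), both steps together, and the comparisons of mesenchyme-like, surface ectoderm-like, neural tube progenitor-like, cluster 4 and cluster 9 with otic cells, against 325, 457, 997, 480, 371, 453, 1168 and 2090. In cells without a source well the counts were 51, 26, 146, 71 (surface ectoderm-like), 55 (neural tube progenitor-like), 246 (cluster 4) and 410 (cluster 9), and of the 33 calls among the 9 genes that could be fitted there 28 were lost. Mesenchyme-like cells were too few there for a fit. Weighting by number of cells gave 503 for the first step, 2507 for both together, 765 for surface ectoderm-like, 2505 for neural tube progenitor-like and 2278 for cluster 4. The log2 of mean FPKM gave 202 for the first step and 163 for surface ectoderm-like. Clustering at resolution 0.6, which merged neuroblasts and neurons and so gave no lineage comparison, gave 766 for mesenchyme-like and 601 for surface ectoderm-like, and resolution 1.5 gave 277 for the second step. Clusters 4 and 9 at resolution 0.6 and cluster 9 at resolution 1.5 had no matching class and no value. Leaving out each plate gave 129 to 322, 267 to 374, 676 to 823, 313 to 412, 252 to 302, 286 to 338, 724 to 971 and 1417 to 1820 genes in the order above.

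Differences that changed sign were all uncalled. Cdh11 in the first step ran from -0.25 to 0.73 over the plates left out, below 0 without plates 1, 2 and 4, and was -0.06 without replicate 2. In the second step Cdh1 was 0.063 without replicate 1 and -1.51 without replicate 2, Cdh2 was -0.083 in cells without a source well, and Zeb1 ran from -0.94 to 0.39 over the plates left out, above 0 without plates 3 and 5, and was 0.10 without replicate 2. Snai2 over both steps was -0.09 without plate 1 and -0.18 without replicate 2. The cause was not tested. The depth in reads is unknown, and the 28 early neuroblast-like cells, 1 of them on plate 1, limit the precision of both steps.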
